A study of Mus musculus with 768 samples.

Results

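Cells of mouse embryoid bodies, taken 30 h after doxycycline, were divided by whether they still listed any transcript of Pou5f1 (Oct4), the central transcription factor of pluripotent cells. Doxycycline induces Neurog2 (Ngn2), Isl1 and Lhx3 together in these cells, 3 transcription factors known to direct pluripotent cells to a spinal motor neuron fate. A cell was kept if it had at least 2000 genes above 0 TPM (transcript abundance scaled to a fixed total of 1000000 in each cell). Of the 96 wells at 30 h, 57 were kept, out of 368 kept cells and 768 wells in the whole series of 8 time points. Pou5f1 was above 0 in 29 of these 57 cells, called retaining below, and at 0 in the other 28, called Pou5f1-zero. The 2 groups were thus chosen by the measured Pou5f1 value, which is given below as a description only. The names describe that value, since a listed 0 can also be a missed transcript.

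All cells came from mouse embryonic stem cells labelled Ainv15(iNgn2.Isl1.Lhx3.V5), in which the 3 factors are induced from 1 cassette carrying a V5 tag. They were grown with leukemia inhibitory factor, CHIR and PD0325901, formed embryoid bodies 2 days before induction, and received doxycycline at 3 µg/ml. Embryoid bodies were dissociated with trypsin, and cells labelled as viable by fluorescein diacetate were sorted singly into 96-well plates for SMART-Seq2, a full-length RNA sequencing method used here without molecular tags. Both groups of cells therefore share the labelled line, drug and time, and were told apart by the Pou5f1 value. Since no label assigns the cells of a time point to different cultures, 30 h counts as 1 sample and its cells are not replicates. For this reason no p-value or standard error is given, each SD is a spread over cells, and only sizes of differences are reported. The line stands for 1 engineered genotype, and reads of the cassette and of the cells' own Neurog2, Isl1 and Lhx3 could not be told apart.

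Pou5f1 works with Sox2 and Nanog in a circuit in which the factors maintain their own genes and many others of the pluripotent state. On the way to neurons this circuit is shut down, cells leave the cell cycle, and proneural basic helix-loop-helix factors such as Neurog2 switch on neuronal differentiation genes. POU factors bind the octamer motif, often beside a Sox site, and the proximal promoter of Nanog is a textbook example of such a composite site.

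The Nanog promoter is shown because, of the genes of the core pluripotency list, Nanog had the largest ratio between the 2 groups of kept cells and is known to be bound by Pou5f1 there. The sequence holds the 250 bases before the Nanog start in the RefSeq annotation of GRCm38.p6, chr6:122707239-122707488 on the plus strand. Capitals mark the 7 bases TTTGCAT, the other strand of ATGCAAA, a 7-letter part of the octamer searched on both strands, and the first capital lies 75 bases before the start.

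Nanog promoter: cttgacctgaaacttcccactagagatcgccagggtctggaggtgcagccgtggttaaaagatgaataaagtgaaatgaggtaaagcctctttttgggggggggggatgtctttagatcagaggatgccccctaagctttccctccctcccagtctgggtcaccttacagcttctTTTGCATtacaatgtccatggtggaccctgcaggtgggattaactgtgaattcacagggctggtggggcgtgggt

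The same 7 letters were found on either strand of the 250-base window in 4.65% of the 27025 genes with a promoter entry. Of Pou5f1 and the 14 core pluripotency genes, 9 of 15 had an entry, and 2 of these 9, Nanog and Sox2, held the motif. A match in letters is a description and not a measured binding site. Pou5f1 itself lies on chromosome 17 at 35506032 to 35510777 and Nanog on chromosome 6 at 122707489 to 122714633 in that annotation. Both genes have near-identical pseudogene copies elsewhere in the mouse genome, so part of their reads may be split or misassigned. The same holds for Dppa5a and Gapdh.

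The value that made the split covered a wide range. In the 29 retaining cells Pou5f1 had a lowest value of 10.5 TPM, a median of 42.6 TPM and a highest of 456 TPM, with a mean of 105 ± 121 TPM (SD, n = 29 cells). The cells nearest the boundary had 10.5 and 12.1 TPM, 8 retaining cells were under 20 TPM, and the 28 Pou5f1-zero cells were listed at exactly 0. Thus no cell lay between 0 and 10 TPM. Pou5f1 was above 0 in 96.2% of the 53 kept cells at 6 h (exact 95% binomial interval 87.0 to 99.5%), in 89.3% of 56 at 18 h (78.1 to 96.0%), in 76.4% of 55 at 24 h (63.0 to 86.8%) and in 50.9% of 57 at 30 h (37.3 to 64.4%). The intervals cover counting error only. The 8 time points as a whole did not follow 1 order: the share was also 45.9% of 37 cells at 0 h, 26.9% of 52 at 12 h, 13.6% of 44 at 36 h and 7.14% of 14 at 48 h, so that 0 h and 12 h lay below 6 h and 18 h. Genes per cell differed between these times as well. Their medians in cells with and without Pou5f1 were 7509 and 2885.5 at 6 h, and 7619 and 3296.5 at 18 h. They were 4115.5 and 4367.5 at 12 h, 3171.5 and 2825.5 at 36 h, and 2485 and 2132 at 48 h. The part that detection plays in the shares over time was not tested. At 30 h, cells with and without the transcript were close to equal in number, and both groups were large enough to describe.

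**Figure D1:**
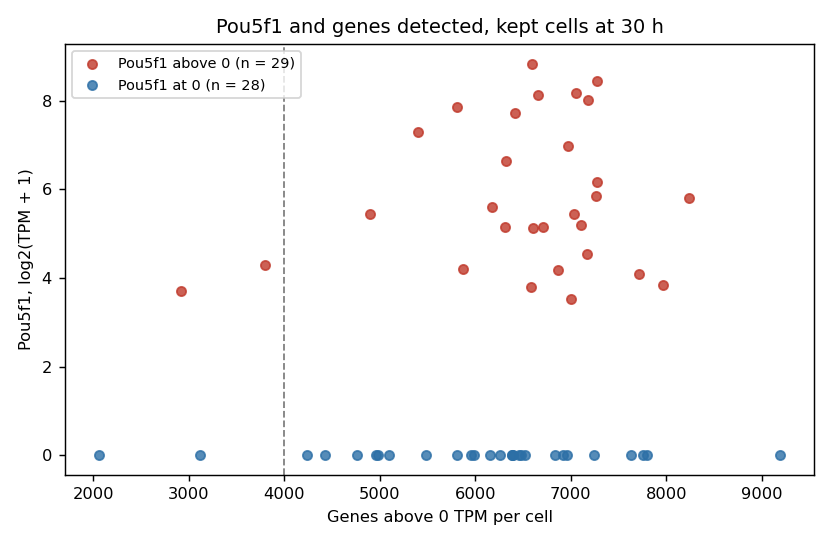
Pou5f1 as log2(TPM + 1) on the vertical axis against genes above 0 TPM on the horizontal axis, 1 point per kept cell at 30 h. Retaining and Pou5f1-zero cells spread over a similar range of genes, with medians of 6710 and 6320.5, and 2 cells of each kind lie left of the dashed line at 4000 genes.

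Genes per cell were used as the check on depth, because TPM keeps no read number. Retaining cells had 2916 to 8236 genes above 0, with a median of 6710, and Pou5f1-zero cells had 2056 to 9194, with a median of 6320.5. The ranges overlapped over nearly their whole width and the medians differed 1.06-fold. The groups were not evenly spread, however. Of the kept cells with at least the median number of genes, 19 were retaining and 10 Pou5f1-zero. Of those below it, 10 were retaining and 18 Pou5f1-zero. Detection was also somewhat more frequent in the retaining cells. Over the 6573 genes that passed a filter on low values (10 TPM or more on average in the group where the gene was higher, and above 0 in at least 25% of the cells there), the median share of cells above 0 was 72.4% in retaining and 64.3% in Pou5f1-zero cells, and 64.5% of the genes had the higher share in retaining cells. Hprt, a purine salvage enzyme that all cells use, was above 0 in 72.4% and 46.4% of the cells, with means of 64.4 ± 116 and 46.4 ± 104 TPM. Shares below are to be read beside these values, and the part that detection plays in them was not tested. The choice of kept cells also counted: of the 39 wells left out at 30 h, 2 listed Pou5f1 above 0, with a highest value of 1784 TPM, and the left-out well with the most genes had 1946.

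Certain cells stood apart. The retaining cells numbered 33 and 41, with 3797 and 2916 genes, had 32032 and 62376 TPM of the MHC class I gene H2-T23, while the other retaining cells had at most 1496 TPM and the Pou5f1-zero cells at most 1516 TPM. H2-T23 belongs to a family of near-identical genes. The same 2 cells had 18172 and 49992 TPM of Park2 (parkin, a ubiquitin ligase), against at most 4340 TPM in the other retaining cells. Cells with at least 4000 genes, 27 retaining and 26 Pou5f1-zero, were therefore compared separately, and their values stand below for several lists and named genes. Well numbers were uneven as well: the 7 kept cells numbered 86 or higher were all Pou5f1-zero, whereas 29 of the 50 cells with lower numbers were retaining. The labels report 2 library batches without assigning cells to them, so batch and Pou5f1 state could not be compared. Sod1, a superoxide dismutase gene, had similar means of 510 ± 395 and 526 ± 562 TPM in the 2 groups.

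Across the transcriptome the groups overlapped for every gene. Of the 6573 passing genes, 384 had a mean at least 2-fold higher in retaining cells (5.84%) and 659 a mean at least 2-fold lower (10.0%), counted on the ratio of mean TPM + 1. In all comparisons below, a log2 ratio is retaining over Pou5f1-zero on this scale, which understates the difference of low genes. The median log2 ratio of all passing genes was -0.16, and centring on it gave 512 higher and 479 lower genes. In cells with at least 4000 genes the counts were 365 (5.48%) and 651 (9.77%) of 6660, with a median of -0.14. For 0 of the 6573 genes were the cells of the groups fully separated. A difference of means here is therefore a difference in how many cells had the gene and at what level, not a clean division of the cells.

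Core pluripotency genes were on balance higher in the cells that still listed Pou5f1. Of the 14 genes of the list other than Pou5f1, 11 passed the filter, 6 of these were at least 2-fold higher and 0 were at least 2-fold lower, beside 5.84% and 10.0% of all genes. Their median log2 ratio was 1.09, against -0.16 for all genes, and 1.13 in cells with at least 4000 genes. With no filter on low values it was 0.34. Nanog, Dppa2, Tdgf1, L1td1 and Utf1 reached 10 TPM on average in retaining cells only, and so passed the filter through that group.

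Nanog, the homeobox factor whose promoter is printed above, was above 0 in 19 of 29 retaining cells (65.5%, exact interval 45.7 to 82.1%) and in 6 of 28 Pou5f1-zero cells (21.4%, 8.3 to 41.0%). Its lowest, median and highest values were 0, 16.7 and 1398 TPM in retaining cells and 0, 0 and 81.8 TPM in Pou5f1-zero cells. Most retaining cells thus had some Nanog and most Pou5f1-zero cells listed none, but the ranges overlapped. The means were 112 ± 261 and 9.04 ± 22.9 TPM, a log2 ratio of 3.49. The highest value came from cell 41, which stood apart above, and in cells with at least 4000 genes the means were 58.1 and 6.61 TPM, a log2 ratio of 2.96. Without cells numbered 86 or higher the ratio of Nanog was 5.09, and with both limits 4.11.

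The next members by size were Dppa2, a chromatin protein of pluripotent cells, Tdgf1 (Cripto), the co-receptor for Nodal, and L1td1, an RNA-binding protein of stem cells. Dppa2 was above 0 in 9 retaining and 2 Pou5f1-zero cells, reaching 168 and 16.5 TPM, with a log2 ratio of 3.21 (3.88 in cells with at least 4000 genes, where it exceeded Nanog). Tdgf1 was above 0 in 11 and 4 cells, reaching 353 and 134 TPM, with means of 37.0 ± 93.5 and 5.06 ± 25.4 TPM and a log2 ratio of 2.65 (4.81 without cells numbered 86 or higher). L1td1 was above 0 in 16 and 7 cells, with means of 22.3 ± 39.2 and 2.82 ± 6.08 TPM and a log2 ratio of 2.61. In each case the higher mean rested on a subset of the retaining cells, while the rest listed 0 or little. The chromatin-associated stem cell gene Utf1 had a log2 ratio of 1.61, and Dppa5a, an abundant small RNA-binding protein, had medians of 397 and 107 TPM and a log2 ratio of 1.09.

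Other passing members of the list lay close to equal or below. Lin28a, which blocks maturation of let-7, had a log2 ratio of 0.34, Dppa4 0.29 and Trim71 -0.10. Sall4, a zinc finger factor, was above 0 in all 57 cells, with medians of 53.2 and 72.9 TPM and a log2 ratio of -0.42. Pluripotency genes thus did not lie on 1 side: Nanog, Dppa2, Tdgf1, L1td1, Utf1 and Dppa5a lay on the retaining side and Sall4 and Trim71 did not. Sox2, the partner of Pou5f1 at composite sites, was too low to pass, with 3.45 ± 6.63 and 5.23 ± 19.2 TPM and 10 and 4 cells above 0. One of the Pou5f1-zero cells had 99.0 TPM of Sox2. The log2 ratio was -0.49, but 0.41 without the highest cell of each group and 1.18 without cells numbered 86 or higher, so no direction is given for Sox2. Of 13 naive pluripotency genes Zfp42 (Rex1) alone passed, with a log2 ratio of 0.46.

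**Figure D2:**
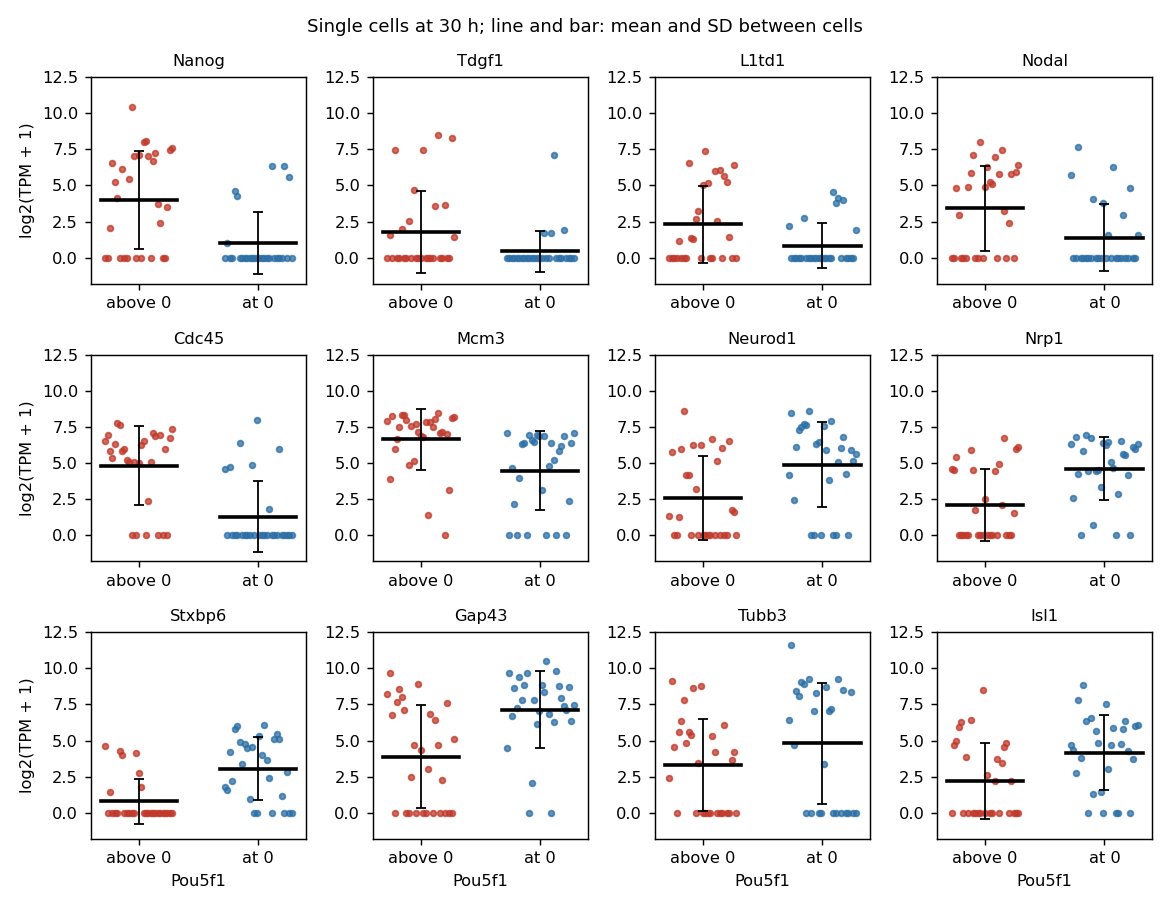
Level of 12 genes as log2(TPM + 1) in each retaining and each Pou5f1-zero cell at 30 h, with the mean and SD over the cells of each group. Nanog was above 0 in 19 of 29 retaining and 6 of 28 Pou5f1-zero cells, Nrp1 in 14 and 25, and no gene separated the groups fully.

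Genes of FGF and Nodal signalling and its feedback, the pathways that keep epiblast cells in a primed state, were also higher on balance in retaining cells. This list also held Id1, Id2 and Id3, so its counts and medians are not of these pathways alone. Of 13 members 11 passed, 5 were at least 2-fold higher, 0 were at least 2-fold lower, and 10 of 11 had a ratio above 0. The median log2 ratio was 0.68, also in cells with at least 4000 genes. It was 0.39 when ratios taken below and above the median of genes per cell were averaged. Nodal, the ligand itself, was above 0 in 18 retaining and 9 Pou5f1-zero cells, with medians of 27.3 and 0 TPM, highest values of 254 and 199 TPM and a log2 ratio of 1.55. Id3, an inhibitor of basic helix-loop-helix factors that BMP signals switch on, was above 0 in 15 and 4 cells, with means of 64.4 ± 127 and 22.6 ± 103 TPM and a log2 ratio of 1.47. Etv5, a transcription factor downstream of FGF and ERK, was above 0 in 21 and 11 cells, with a log2 ratio of 1.46. The Nodal antagonist Lefty1 had means of 189 ± 367 and 84.6 ± 372 TPM and a log2 ratio of 1.15, and here a single Pou5f1-zero cell reached 1968 TPM, above every retaining cell. Without the highest cell of each group the ratio was 3.18 for Lefty1 and 3.44 for Id3. Lefty1 was under 2-fold without the cells numbered 86 or higher. It was also under 2-fold when ratios taken below and above the median of genes per cell were averaged.

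Formative and primed epiblast genes were divided. Of 11 members 8 passed, with 2 at least 2-fold higher, 1 at least 2-fold lower and a median log2 ratio of 0.38. Fgf5, the classic primed epiblast ligand, was above 0 in 23 and 15 cells with medians of 45.5 and 2.42 TPM and a log2 ratio of 0.89, and Fgf15 had a log2 ratio of 1.58. Otx2, a homeobox factor of both primed epiblast and anterior neural tissue, lay on the other side: it was above 0 in 13 retaining and 19 Pou5f1-zero cells, with medians of 0 and 80.0 TPM, means of 75.6 ± 156 and 209 ± 291 TPM and a log2 ratio of -1.46. Lef1, a Wnt effector, had a log2 ratio of 1.01 from the means but -0.27 from the mean of log2 values, so its direction depended on the scale.

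DNA replication genes differed in the same direction throughout their list. All 16 of the S phase genes passed and all 16 had a log2 ratio above 0, with 6 at least 2-fold higher, 0 at least 2-fold lower and a median of 0.87 (0.89 in cells with at least 4000 genes). Cdc45, a component of the replicative helicase, was above 0 in 23 of 29 retaining cells (79.3%, 60.3 to 92.0%) and 7 of 28 Pou5f1-zero cells (25.0%, 10.7 to 44.9%). Its lowest, median and highest values were 0, 56.1 and 222 TPM and 0, 0 and 252 TPM. Its means were 67.8 ± 60.9 and 17.0 ± 50.2 TPM, a log2 ratio of 1.94. Mcm3, another helicase subunit, was above 0 in 28 and 22 cells, with values of 0, 183 and 344 TPM in retaining cells and 0, 62.8 and 135 TPM in the others. Its median in retaining cells therefore exceeded its highest value in Pou5f1-zero cells, and its log2 ratio was 1.52. Cdc6, the loader of that helicase, had means of 34.7 ± 47.3 and 4.90 ± 9.46 TPM and a log2 ratio of 2.60, the uracil glycosylase Ung had 1.39, Mcm4 1.15 and Mcm5 1.01. At the other end of the list, the dUTPase Dut had a ratio of 0.02.

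G2 and M genes did not share this difference in their means. All 17 passed, 0 were at least 2-fold higher and 0 at least 2-fold lower, and the median log2 ratio was -0.06, with Cdk1, the mitotic kinase, at 0.84 and Cdc20, an activator of the anaphase-promoting complex, at -0.70. More retaining cells had these genes above 0, however: 15 of the 17 had the higher share of cells there, with a median difference of 15.5 percentage points, and from means of log2 values the list's median was 0.87. Cdk1 was above 0 in 27 retaining and 16 Pou5f1-zero cells. Cdc20 was above 0 in 27 and 21 cells, with medians of 27.3 and 44.1 TPM, so for this gene fewer Pou5f1-zero cells had it but at a higher level.

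The passing genes of cell cycle exit had higher means in Pou5f1-zero cells, but the list as a whole had no such direction. Of 8 members 4 passed, 3 were at least 2-fold lower in retaining cells, and the median log2 ratio was -1.28. Over all 8, with no filter on low values, it was 0.082. Scores per cell, the mean of log2(TPM + 1) over the list, had close medians of 1.59 in retaining and 1.68 in Pou5f1-zero cells. Ccng2, an unconventional cyclin of arrested cells, was above 0 in 3 retaining and 8 Pou5f1-zero cells, with highest values of 4.95 and 148 TPM and a log2 ratio of -3.17. The cyclin-dependent kinase inhibitor Cdkn1b (p27) had a log2 ratio of -1.29, falling under 2-fold without cells numbered 86 or higher, and the antiproliferative gene Btg1 had -1.27. Cdkn1a (p21), a p53 target, had -0.52. Ccng2, Cdkn1b and Btg1 reached 10 TPM on average in Pou5f1-zero cells only, and so passed the filter through that group.

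The induced factors had lower means in retaining cells. Isl1 was above 0 in 14 of 29 retaining (48.3%) and 23 of 28 Pou5f1-zero cells (82.1%), with medians of 0 and 24.9 TPM, highest values of 358 and 463 TPM and means of 25.2 ± 68.0 and 57.0 ± 96.0 TPM. Its log2 ratio was -1.15, and it was under 2-fold without cells numbered 86 or higher. Lhx3 was above 0 in 18 and 21 cells with medians of 6.09 and 18.8 TPM and a log2 ratio of -0.91. Neurog2 did not pass the filter, with 4 and 11 cells above 0 and means of 0.554 ± 1.46 and 2.63 ± 5.14 TPM. At least 1 of the 3 factors was above 0 in 18 of 29 retaining and 23 of 28 Pou5f1-zero cells, and all 3 were listed at 0 in 11 and 5 cells. Whether the cells that listed none were induced cannot be told from these values.

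Passing genes of the proneural cascade downstream of such factors had lower means in retaining cells. Of 17 members 9 passed, all 9 had a log2 ratio below 0, 7 were at least 2-fold lower, and the median was -1.36 (-1.37 in cells with at least 4000 genes). With no filter on low values the median was -0.84. By the share of cells above 0, 2 of the 9 were higher in retaining cells. Neurod1, a basic helix-loop-helix factor of neuronal differentiation, was above 0 in 16 retaining and 22 Pou5f1-zero cells, with medians of 1.54 and 58.3 TPM and highest values of 386 and 390 TPM. Its means were 34.1 ± 74.9 and 92.8 ± 107 TPM, a log2 ratio of -1.42. The zinc finger factor St18 was above 0 in 6 and 11 cells with highest values of 21.5 and 412 TPM and a log2 ratio of -3.56. Gadd45g had a log2 ratio of -1.44, Neurod4 -1.39, the Notch ligand Dll1 -1.36, and Srrm4, a splicing factor of neuronal microexons, -1.27. The Neurod4 means came from 3 and 8 cells. St18 and Neurod4 reached 10 TPM on average in Pou5f1-zero cells only, and so passed the filter through that group. Ebf2, an early neuronal factor and the 1 passing gene of 6 in the Ebf and Onecut list, had a log2 ratio of -1.60.

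Pan-neuronal structural genes followed the same direction. Of 21 members 17 passed, all 17 had a log2 ratio below 0, 11 were at least 2-fold lower in retaining cells and the median was -1.55 (-1.29 in cells with at least 4000 genes). Gap43, a growth cone protein, was above 0 in 18 retaining and 26 Pou5f1-zero cells. Its lowest, median and highest values were 0, 18.9 and 830 TPM and 0, 199 and 1475 TPM, its means 111 ± 189 and 325 ± 344 TPM, and its log2 ratio -1.55. For Gap43 both the share of cells and the level were lower in retaining cells. Tubb3, the neuronal beta tubulin, was above 0 in 17 cells of each group, so the difference lay in its level, with medians of 11.6 and 107 TPM, highest values of 564 and 3150 TPM and a log2 ratio of -1.99. The RNA-binding proteins Elavl4 and Elavl3 had log2 ratios of -2.89 and -2.26, but Elavl4 was above 0 in only 4 and 8 cells and had -1.97 without cells numbered 86 or higher. Elavl4 and Elavl3 reached 10 TPM on average in Pou5f1-zero cells only, and so passed the filter through that group. Light neurofilament Nefl had -1.93, the reticulon Rtn1 -1.73 and the adhesion molecule Ncam1 -1.08.

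Stmn2, a microtubule regulator of growing axons, was the member nearest to equal. It was above 0 in 24 of 29 retaining and 25 of 28 Pou5f1-zero cells, with medians of 42.3 and 114 TPM, means of 111 ± 237 and 137 ± 119 TPM and a log2 ratio of -0.30. Most cells that still listed Pou5f1 thus also had this neuronal transcript. Mapt (tau) was listed at 0 in all retaining cells and above 0 in 3 Pou5f1-zero cells, so no ratio is given.

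Axon guidance receptors were lower in retaining cells as far as they were detected. Only 3 of 14 measured members passed, all at least 2-fold lower, with a median log2 ratio of -1.40. With no filter on low values the median of the axon guidance list was -0.73, and from means of log2 values it was -2.30. Nrp1, a semaphorin receptor, was above 0 in 14 and 25 cells, with values of 0, 0 and 103 TPM against 0, 39.0 and 123 TPM, and a log2 ratio of -1.46. The ephrin receptor Epha4 had -1.40, and the Slit receptor Robo2 -1.01, under 2-fold without cells numbered 86 or higher. Epha4 was above 0 in 16 and 17 cells. It reached 10 TPM on average in Pou5f1-zero cells only, and so passed the filter through that group. Of 10 motor neuron genes 4 passed, 2 of them at least 2-fold lower, with Chodl at -2.02 from 7 cells in each group and Lmo4 at -1.22 (-0.99 in cells with at least 4000 genes). Mnx1 (Hb9), a motor neuron homeobox factor, had a log2 ratio of -0.57 and of 0.02 in cells with at least 4000 genes.

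Neural progenitor genes were mixed. Of 13 members 4 passed, 2 at least 2-fold lower, with a median of -0.59, which was -0.23 in cells with at least 4000 genes and 0.41 over all members with no filter on low values. Vim, an intermediate filament, had medians of 57.4 and 182 TPM and a log2 ratio of -1.35. Pax6, a neural progenitor factor, had medians of 9.52 and 35.5 TPM and a log2 ratio of -1.16 (-0.89 in cells with at least 4000 genes). Fabp7, a radial glia protein, lay the other way at 0.44, and at about 0 without the highest cell of each group.

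Epithelial genes did not follow 1 direction. Of 12 simple epithelium genes 6 passed, with 1 at least 2-fold higher, 0 at least 2-fold lower and a median of -0.42, which turned to 0.091 with no filter on low values. Cdh1 (E-cadherin), the adhesion molecule of pluripotent and epithelial cells, was above 0 in 24 and 16 cells, with medians of 39.8 and 3.13 TPM, highest values of 299 and 109 TPM and a log2 ratio of 1.50. The keratin Krt8 lay the other way, with medians of 350 and 738 TPM and a log2 ratio of -0.63.

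Markers of other lineages were near 0 on both sides. None of 12 endoderm, 8 trophectoderm, 6 measured neural crest and sensory or 7 interneuron genes passed, and Sox17, Foxa2, Cdx2 and Sox10 were listed at 0 in all 57 cells. The summed TPM of the endoderm list ranged from 0 to 46.2 in retaining and 0 to 76.7 in Pou5f1-zero cells, that of the trophectoderm list from 0 to 29.6 and 0 to 33.3, that of the neural crest list from 0 to 25.0 and 0 to 19.2, and that of the interneuron list from 0 to 33.7 and 0 to 1.59. Of 16 primitive streak and mesoderm genes T (Brachyury) passed, above 0 in 12 retaining and 6 Pou5f1-zero cells with highest values of 614 and 606 TPM and a log2 ratio of 0.91 (1.76 without the highest cell of each group). The summed list had medians of 16.7 and 2.44 TPM. What T-positive cells contribute to the comparisons was not tested.

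Among lists of general cell functions, genes that every cell uses had a median log2 ratio of 0.06 with 0 of 10 at least 2-fold apart, and the 11 glycolysis genes a median of 0.28 with 0 at least 2-fold apart. Gapdh, a glycolytic enzyme, had means of 9459 and 7782 TPM. Immediate early genes (median -0.34, 6 passing), p53 targets (-0.23, 8 passing) and stress genes (-0.40, 5 passing) lay near the median of all genes. By their median ratios, the core pluripotency, S phase, proneural and pan-neuronal lists therefore lay further from the median of all genes than these did.

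**Figure D3:**
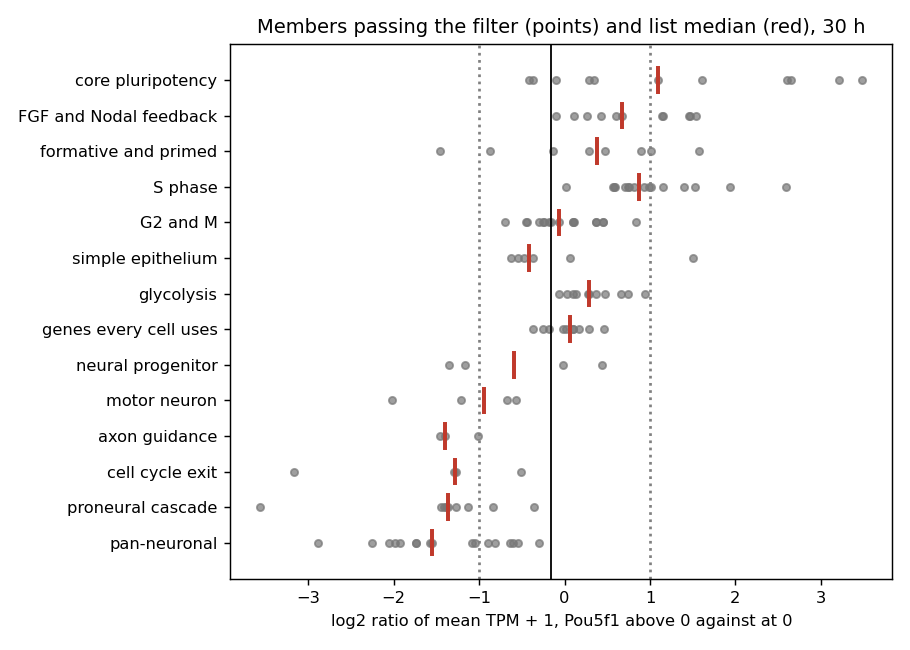
Log2 ratio of mean TPM + 1, retaining over Pou5f1-zero cells at 30 h, for each passing member of the lists (points), with the list median in red, the median of all 6573 genes as a solid line and 2-fold limits dotted. All 16 S phase genes lie above 0 and all 17 pan-neuronal genes below it.

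By the rule of size, the 10 highest passing genes were Tapbpl, H2-T23, Park2, Ptcra, Upp1, Nanog, Pbld1, Vmn2r-ps129, Morc4 and Atr, with log2 ratios from 3.33 to 5.15. Only 6 of the 10 were still at least 2-fold higher in cells with at least 4000 genes. H2-T23 went from 4.06 to 0.65 and Tapbpl, which had 1515 TPM in 1 retaining cell, from 5.15 to 1.15. This ranking thus depended on the 4 cells with fewer genes. Tapbpl, Ptcra, Upp1, Nanog, Vmn2r-ps129 and Morc4 reached 10 TPM on average in retaining cells only, and so passed the filter through that group. Upp1 (uridine phosphorylase) and Nanog kept log2 ratios of 3.65 and 2.96. Upp1 was above 0 in 12 and 3 cells, with means of 66.9 ± 170 and 4.44 ± 17.9 TPM. The same rule in cells with at least 4000 genes, applied after the values were seen, named Cryl1 (3.98), Dppa2 (3.88), Upp1, Tuba3b (3.17), Cyb5rl (3.09), Phlda2 (3.06), Nanog, Tfpi (2.88) and Cdc6 (2.84). It also named Gstt3, which was listed at 0 in every Pou5f1-zero cell and above 0 in 24.1% of retaining cells.

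The 10 lowest genes were St18, Lmo3, Mef2c, C8g, Ccng2, Npr2, Rcor3, Elavl4, Slc17a5 and Nnat, from -3.56 to -2.80, and all 10 were still at least 2-fold lower in cells with at least 4000 genes. That comparison left out only 2 cells of each group and reused the others, so it is no independent support. All of the 10 except Nnat reached 10 TPM on average in Pou5f1-zero cells only, and so passed the filter through that group. Several were transcripts of a minority of Pou5f1-zero cells. Lmo3, a LIM-only transcription cofactor, Mef2c, a neuronal and muscle MADS factor, and Npr2, the receptor for C-type natriuretic peptide, were each above 0 in 1 retaining cell and in 8, 7 and 11 Pou5f1-zero cells. Nnat (neuronatin), an imprinted proteolipid gene of neural and endocrine cells, was above 0 in 13 and 19 cells, with highest values of 1033 and 4758 TPM, means of 95.5 ± 251 and 671 ± 1236 TPM and a log2 ratio of -2.80.

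The share of cells gave a different ranking. The largest differences towards retaining cells were Nid2 (nidogen 2, a basement membrane protein), above 0 in 75.9% and 21.4% of cells, Cdc45, Scd1 (stearoyl-CoA desaturase, 79.3% and 25.0%), Avpi1 (62.1% and 14.3%) and Nsl1 (a kinetochore protein, 79.3% and 32.1%). These are to be read beside the median difference of 3.8 percentage points in the same direction over all passing genes. The largest towards Pou5f1-zero cells were Stxbp6 (amisyn, a SNARE-binding protein; 24.1% and 78.6%), Edil3 (20.7% and 64.3%), Nrp1 (48.3% and 89.3%), the neuronal SoxC factor Sox4 (41.4% and 78.6%) and Akr1b8 (37.9% and 75.0%). These ran against the general direction of detection. Stxbp6 had medians of 0 and 10.6 TPM, highest values of 24.2 and 65.6 TPM and a log2 ratio of -2.28, and Sox4 medians of 0 and 10.3 TPM and a log2 ratio of -1.56.

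The retaining cells were also described by their level of Pou5f1, the value that defined them, which gives no independent support to the comparison above. At a limit of 100 TPM, set after the values were seen, 9 cells lay above, 20 below, and the nearest cells had 99.1 and 125 TPM. Scores per cell, the mean of log2(TPM + 1) over a list, had medians for core pluripotency of 3.46 in the 9 high cells, 2.53 in the 20 low cells and 1.78 in the 28 Pou5f1-zero cells. For FGF and Nodal feedback they were 3.56, 2.44 and 1.31, for the proneural cascade 0.914, 1.51 and 2.25, and for pan-neuronal genes 1.82, 2.35 and 3.26. In these lists the low cells lay between the others. The S phase score differed from this, with medians of 6.01, 6.19 and 4.53, so that high and low retaining cells had close medians and the Pou5f1-zero cells a lower one.

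Several single genes were ordered in the same way by the share of cells. Nanog was above 0 in 77.8%, 60.0% and 21.4% of high, low and Pou5f1-zero cells, although its means of 105, 114 and 9.04 TPM did not order high and low cells. Edil3 was above 0 in 0%, 30.0% and 64.3%, and Gap43 in 44.4%, 70.0% and 92.9%. The mean of Gap43 was 18.2, 152 and 325 TPM. Stmn2, Tubb3 and Nefl were not ordered in this way by the share of cells. Stmn2 was above 0 in 100%, 75.0% and 89.3%, Tubb3 in 33.3%, 70.0% and 60.7%, and Nefl in 55.6%, 25.0% and 39.3%. The median number of genes per cell was 6660, 6785 and 6320.5 in the 3 sets. Over the 29 retaining cells, as a description across cells of 1 sample, Spearman's rho of the Pou5f1 level was 0.39 with the core score, 0.52 with FGF and Nodal feedback, -0.32 with the proneural and -0.25 with the pan-neuronal score, and 0.08 with genes per cell. In the 27 cells with at least 4000 genes these were 0.32, 0.45, -0.50, -0.46 and -0.07. All scores share the library and the fixed TPM total of a cell, and over all 57 cells rho with genes per cell was 0.39 for the core, 0.48 for the S phase and 0.24 for the pan-neuronal score.

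The scores overlapped between the groups. Of 29 retaining cells, 27 had a core score above the Pou5f1-zero median, and 5 of 28 Pou5f1-zero cells had one above the retaining median. For the pan-neuronal score, 20 of 28 Pou5f1-zero cells lay above the retaining median and 5 of 29 retaining cells above the Pou5f1-zero median, and the highest scores were 5.40 and 6.94. Pluripotency and neuronal transcripts also occurred in the same cells. Nanog and Stmn2 were both above 0 in 15 retaining cells, Nanog alone in 4, Stmn2 alone in 9 and neither in 1. In Pou5f1-zero cells the counts were 6, 0, 19 and 3. A well holding more than 1 cell would also give both, and no doublet caller was run on these sorted cells.

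**Figure D4:**
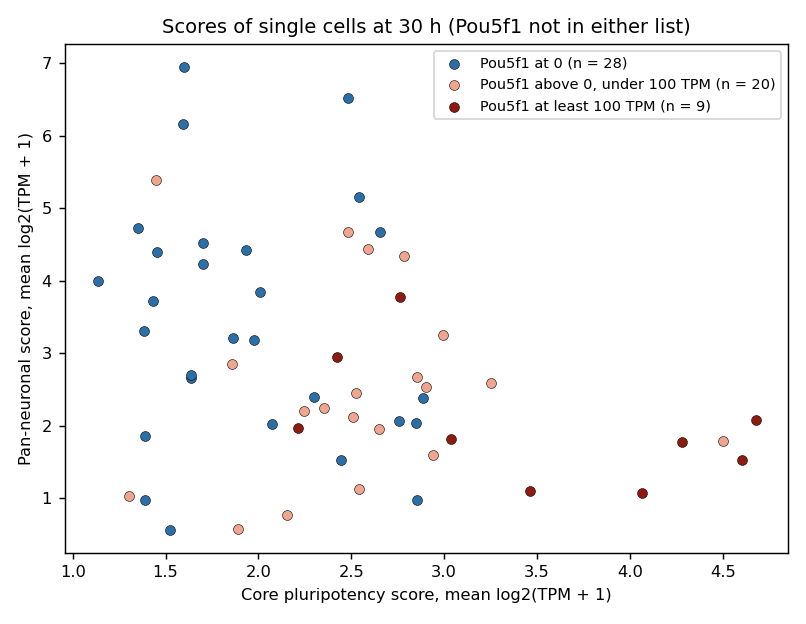
Pan-neuronal score against core pluripotency score (means of log2(TPM + 1) over each list, Pou5f1 not included) for the 57 kept cells at 30 h, coloured by Pou5f1 of at least 100 TPM (n = 9), under 100 TPM (n = 20) and 0 (n = 28). Median core scores were 3.46, 2.53 and 1.78, and the clouds overlap.

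Set beside 6 h, when nearly all cells listed Pou5f1, the retaining cells of 30 h were not at the early level for every gene. Pluripotency genes differed in this. Nanog had a mean of 77.4 TPM at 6 h, against 112 and 9.04 TPM in retaining and Pou5f1-zero cells at 30 h (58.1 and 6.61 TPM with at least 4000 genes), whereas Dppa2 had 107, 15.3 and 0.759 TPM, Utf1 63.7, 11.4 and 3.06 TPM and Dppa5a 2042, 961 and 451 TPM. The mean of retaining cells thus lay around the 6 h mean for Nanog, on either side of it depending on the cells kept, and below it for Dppa2, Utf1 and Dppa5a. The 6 h mean of Nanog is uncertain, since its SD over cells was 377 TPM, against 85.8 TPM for Dppa2. Nanog was above 0 in 56.6% of cells at 6 h and 65.5% of retaining cells, and Dppa2 in 92.5% and 31.0%. Replication genes were above or near the 6 h mean in retaining cells, with Cdc45 at 51.5, 67.8 and 17.0 TPM and Mcm3 at 129, 167 and 57.6 TPM. Stmn2, with 9.57 TPM at 6 h, was above that in both groups at 111 and 137 TPM, and Nrp1 went from 9.49 TPM at 6 h to 16.1 and 46.1 TPM. These are different samples with 1 culture each, so the values stand side by side with no test.

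The same split was made in the cells of 24 h, which share no cell with 30 h and were not used to choose the groups. There 42 of 55 kept cells had Pou5f1 above 0 and 13 were at 0, with median gene numbers of 6770.5 and 6453. At 24 h, 765 of 6448 passing genes (11.9%) were at least 2-fold higher and 519 (8.05%) at least 2-fold lower with Pou5f1, around a median of 0.05. The share of genes with the same direction at 24 h was close to that of all genes for those higher at 30 h. For those lower at 30 h it was above that of all genes. Of the 384 genes at least 2-fold higher at 30 h, 57.3% had a log2 ratio above 0 at 24 h, beside 55.1% of all 6573 genes, and of the 659 at least 2-fold lower, 54.8% were below 0, beside 44.9% of all. At 18 h only 6 kept cells were at 0, too few for the comparison.

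Pluripotency genes were among those with the same direction at 24 h. The 11 core genes had a 24 h median log2 ratio of 0.84, with 5 at least 2-fold higher and 0 lower. Nanog had means of 39.6 ± 73.4 and 4.38 ± 8.40 TPM there, a log2 ratio of 2.92, and Tdgf1 and L1td1 had 3.55 and 3.44. The ratios of the FGF and Nodal list, with Id3 in it, were larger there, with a 24 h median of 1.23 and 9 of 11 at least 2-fold higher. Lefty1 had 134 and 0.783 TPM (6.24), Fgf5 55.3 and 0.486 TPM (5.24), Id3 5.19, Lefty2 4.03 and Nodal 2.65. Cdh1 had 2.28 and T 2.53.

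Neuronal and replication genes had smaller median ratios at 24 h than at 30 h. The 17 pan-neuronal genes had a median of -0.67, with 5 at least 2-fold lower and 0 higher, and the 9 proneural genes -0.41, with 3 lower. Neurod1 was at -0.03, Nrp1 at -0.06, Isl1 at 0.18 and Otx2 at 0.04, so the 30 h differences of these 4 genes were not seen at 24 h, while Gap43 had -0.67 and Gadd45g -2.27. The S phase genes had a median of 0.40, 13 of 16 above 0 and 1 at least 2-fold higher, with Cdc45 at 0.41 and Cdc6 at -0.72. The G2 and M genes, near 0 at 30 h, all had ratios above 0 at 24 h, with a median of 0.88 and 6 of 17 at least 2-fold higher. Pax6 lay the other way from 30 h, at 1.72. Whether the 2 times differ for any of these genes was not tested, since each is 1 sample and only 13 cells lacked Pou5f1 at 24 h.

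**Figure D5:**
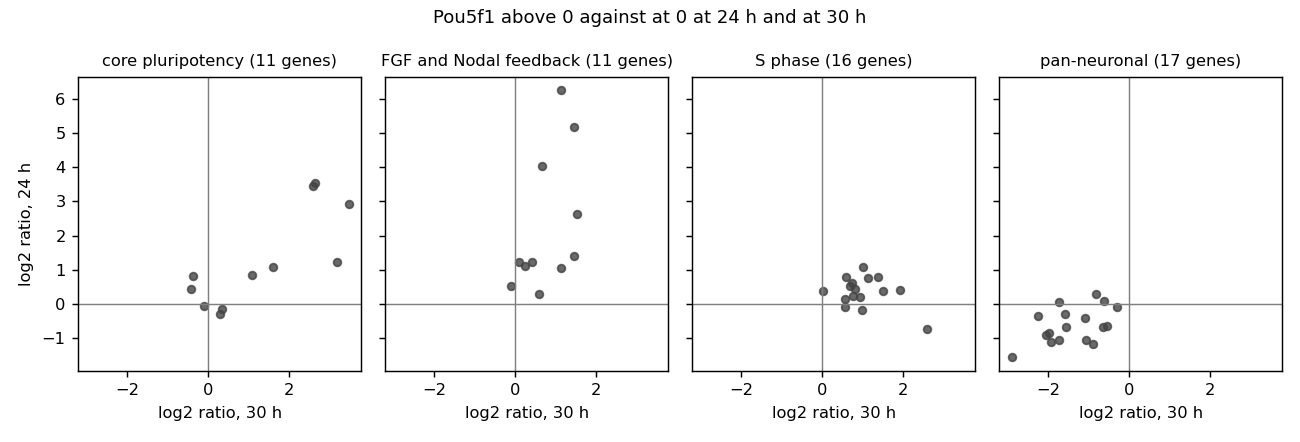
Log2 ratio of mean TPM + 1 for cells with Pou5f1 above 0 over cells at 0, at 24 h (vertical) against 30 h (horizontal), for the passing members of 4 lists. FGF and Nodal genes reach 6.24 at 24 h against at most 1.55 at 30 h, while pan-neuronal genes lie further below 0 at 30 h, with medians of -0.67 and -1.55.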

How the data were processed

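RNA of single cells was measured by SMART-Seq2 with single-end reads of 50 bases and a stated average of 325000 reads per cell, per the labels. The authors deposited 1 table of TPM for 27723 genes, whose columns sum to 1000000 within 0.82. Per the submitters' processing notes, bcl2fastq and Picard were used with mm10. For aligner and annotation nothing is given in the sources used here. The depth behind a TPM value is unknown. No columns were identical.

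Time points came from the labels, and cells were split by Pou5f1. Log2 ratios used mean TPM with a pseudocount of 1. A list was described by counts and the median over its passing members. A gene under 10 TPM on average in 1 group passed the filter through the other group, where it was higher. Genes of families, pseudogenes and overlapping genes may share reads. Exact intervals are Clopper-Pearson. The ratios and the filter were tested on simulated cells.

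The members and lists were chosen with earlier results of these data known. Genes were named by rule: Pou5f1, Sox2, Nanog, the 3 factors, Gapdh, Hprt and Sod1, the 10 highest and 10 lowest genes (leaving out unnamed gene models and small RNA genes) still at least 2-fold apart without the highest cell of each group, the 5 largest differences in the share of cells in each direction, and up to 4 members of each list with the largest ratios. Other list members, among them Stmn2, Gap43, Nefl, Rtn1, Ncam1, Sall4, Dut and Mcm5, were named after their values were seen. The values of 1 list member are not reported here. Lists not described in the text had at most 6 passing members. Of the list entries, 335 matched by symbol, 6 through a synonym in RefSeq, and 10 were not matched. Alternatives varied the pseudocount, the filter, the scale, the centring, the cells kept and the highest cell. Those on cell numbers and the ranking in cells with at least 4000 genes were added after the data were seen. Computations ran in Python 3.11.15 (pandas 2.3.3, numpy 2.4.6; scipy 1.17.1 for intervals; figures by matplotlib 3.10.9).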

Additional observations from a re-analysis of the deposited data

How the results depend on the processing

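Of the 73 named genes at least 2-fold apart, 65 were still so in cells with at least 4000 genes and 67 without cells numbered 86 or higher. With both limits 57 were still so. When ratios taken below and above the median of genes per cell were averaged, 71 were still so. The 73 include the genes ranked in cells with at least 4000 genes, which were 2-fold apart there by choice, so the 65 holds no independent support. They also include Neurog2, Gstt3 and Cyb5rl, which did not pass the filter. A pseudocount of 10 left 55 of the 73, and 137 higher and 201 lower genes in all. Means of log2 values left 54, with Lef1 reversed at -0.27, 774 higher and 380 lower genes in all, and the G2 and M median at 0.87. With no filter on low values 1557 genes were higher and 1987 lower, the core pluripotency median was 0.34, and the medians of neural progenitor, simple epithelium and cell cycle exit genes turned to 0.41, 0.091 and 0.082. The cause of these shifts was not tested. Without cells numbered 86 or higher the core, pan-neuronal and S phase medians were 0.74, -1.34 and 1.04. A limit of 10 TPM for Pou5f1 gave the same groups. No paired analysis was possible because cell numbers only name wells and no test between samples was made. Low transcripts missed in a cell cannot be told from absent ones.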

Other observations

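Neuropeptide and imprinted genes were divided in the same cells at 30 h. Trh, the thyrotropin-releasing hormone precursor, was above 0 in 19 of 29 retaining and 9 of 28 Pou5f1-zero cells, with highest values of 4724 and 1808 TPM and a log2 ratio of 1.24, and at 24 h the log2 ratio was 4.00. Of the 10 neuropeptide and granule genes 5 passed the filter, 1 at least 2-fold higher and 2 at least 2-fold lower, so Trh and Nnat lay on opposite sides of 1 list. Of 8 DNA methylation genes 6 passed, with a median log2 ratio of 0.30, and Dnmt3b, a de novo methyltransferase, had medians of 23.2 and 13.8 TPM. Tet3 of that list lay the other way at -1.01, and at -0.61 without the highest cell of each group. Of the 6 passing immediate early genes, 2 had a log2 ratio above 0 and 4 below. Fos was above 0 in 19 and 13 cells, with medians of 31.6 and 0 TPM. Ier2 lay the other way, with means of 36.8 ± 40.4 and 137 ± 333 TPM and a log2 ratio of -1.87. Without cells numbered 86 or higher Ier2 was under 2-fold.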
